A study of Homo sapiens with 12 samples.

Results

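The genes described here are the nuclear genes whose products build the 5 complexes of mitochondrial oxidative phosphorylation. They were taken by symbol, as protein-coding genes outside the mitochondrial genome whose names begin with NDUFA, NDUFB, NDUFC, NDUFS or NDUFV and a digit, with SDHA to SDHD, with UQCR, with COX4 to COX8 or with ATP5. The rule used no measured value and found 90 genes among 59172 annotated features, with 39 genes for complex I, 4 for complex II, 9 for complex III, 17 for complex IV and 21 for complex V. RNA-seq levels were measured in HCT-116, a human colorectal carcinoma cell line, in 4 groups of 3 libraries. The shSHP2CPT11 cells had SHP2, a tyrosine phosphatase encoded by PTPN11, silenced by short hairpin RNA and were given CPT-11 (irinotecan, a topoisomerase I inhibitor) for 24 h. The LovaCPT11 cells received lovastatin, an inhibitor of cholesterol synthesis, for 4 h and then CPT-11 for 24 h, the CPT11 cells received only CPT-11 for 24 h, and the untreated cells received neither drug. The last 3 groups were labelled wild type. The treatment label of the silenced cells also lists lovastatin for 4 h, whereas their titles do not. The labels describe no silenced group without CPT-11, no lovastatin group without CPT-11 and no control hairpin. Whether replicate libraries were grown as separate cultures is not stated. The p-values therefore cover only the variation among these libraries, part of which may be technical.

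Oxidative phosphorylation is the process by which mitochondria turn the energy of nutrients into ATP. Complex I (NADH dehydrogenase) and complex II (succinate dehydrogenase) pass electrons to ubiquinone, complex III (the cytochrome bc1 complex) passes them to cytochrome c, complex IV (cytochrome c oxidase) passes them to oxygen, and complex V (ATP synthase) uses the proton gradient so built to make ATP. Most subunits are encoded in the nucleus and imported, while a small core of complexes I, III, IV and V is encoded by mitochondrial DNA, and complex II is encoded in the nucleus alone. NRF1 (nuclear respiratory factor 1), the ETS-family factor GABP and YY1 are known activators of many of these nuclear genes.

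Promoter windows from RefSeq (GRCh38.p14, 250 bases before to 50 bases after the gene start, 300 bases in all) were matched for 71 of the 90 genes and searched on both strands for 3 motifs. The NRF1 motif was GCGC and TGCGC with any 1 base between them, the ETS motif CCGGAAG and the YY1 motif AAGATGGC. The NRF1 motif was found in 17 of the 71 windows (23.9%), against 8.58% of 15843 windows of protein-coding genes. The ETS motif was found in 20 (28.2%, against 14.2%) and the YY1 motif in 11 (15.5%, against 3.91%). At least 1 of the 3 was found in 39 of the 71 windows (54.9%), against 23.6% of all windows. A match is a stretch of letters and does not show that a factor binds there. Shown here are the windows of COX6A1, COX8A and NDUFA1, the members with the greatest log2 differences between the shSHP2CPT11 and untreated cells, and of SDHA and SDHB, partner subunits called in opposite directions. They are written 5′ to 3′ on the gene's strand, with motif matches in capitals.
COX6A1 (chr12:120437863-120438162, plus strand): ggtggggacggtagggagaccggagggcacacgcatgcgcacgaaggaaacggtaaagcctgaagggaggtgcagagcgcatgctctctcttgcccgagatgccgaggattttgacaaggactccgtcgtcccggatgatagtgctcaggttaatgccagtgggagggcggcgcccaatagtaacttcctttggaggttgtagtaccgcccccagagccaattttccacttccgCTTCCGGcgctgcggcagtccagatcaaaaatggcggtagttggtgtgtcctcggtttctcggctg
COX8A (chr11:63974370-63974669, plus strand): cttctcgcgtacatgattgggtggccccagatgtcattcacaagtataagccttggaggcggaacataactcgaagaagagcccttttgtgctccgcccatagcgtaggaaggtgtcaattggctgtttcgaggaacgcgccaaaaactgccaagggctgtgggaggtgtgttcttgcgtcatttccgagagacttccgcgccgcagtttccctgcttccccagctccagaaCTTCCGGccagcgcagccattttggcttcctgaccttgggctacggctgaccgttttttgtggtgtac
NDUFA1 (chrX:119871582-119871881, plus strand): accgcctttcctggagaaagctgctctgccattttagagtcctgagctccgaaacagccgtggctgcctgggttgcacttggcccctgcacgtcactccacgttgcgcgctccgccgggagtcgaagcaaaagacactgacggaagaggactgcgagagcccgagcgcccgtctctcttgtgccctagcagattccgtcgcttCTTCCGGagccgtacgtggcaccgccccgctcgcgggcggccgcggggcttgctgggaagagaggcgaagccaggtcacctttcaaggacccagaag
SDHA (chr5:218070-218369, plus strand): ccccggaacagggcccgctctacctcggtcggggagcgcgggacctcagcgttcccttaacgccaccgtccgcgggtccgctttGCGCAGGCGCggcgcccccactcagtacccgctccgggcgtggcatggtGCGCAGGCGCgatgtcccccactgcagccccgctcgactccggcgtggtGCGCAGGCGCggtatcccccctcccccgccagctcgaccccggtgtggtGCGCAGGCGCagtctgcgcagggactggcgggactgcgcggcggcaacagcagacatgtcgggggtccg
SDHB (chr1:17053983-17054282, minus strand): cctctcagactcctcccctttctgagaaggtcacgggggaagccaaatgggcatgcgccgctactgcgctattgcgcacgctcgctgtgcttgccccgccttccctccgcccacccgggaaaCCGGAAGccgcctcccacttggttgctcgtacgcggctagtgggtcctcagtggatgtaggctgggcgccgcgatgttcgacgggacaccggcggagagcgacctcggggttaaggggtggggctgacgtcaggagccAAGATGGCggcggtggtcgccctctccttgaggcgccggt
The COX6A1, COX8A and NDUFA1 windows each held 1 ETS match, read on the opposite strand as CTTCCGG. The SDHA window held 4 NRF1 matches, also read on the opposite strand, and the SDHB window held 1 ETS match and 1 YY1 match.

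Each library had 14447847 to 16224271 reads assigned to genes. Levels are FPKM, reads per kilobase of gene and per unit of library size. PTPN11 had 6.01, 6.54 and 7.15 FPKM in the shSHP2CPT11 libraries, against 48.2, 50.5 and 43.9 FPKM in the CPT11 libraries, a log2 difference of -2.68 ± 0.07 (SE, adjusted p = 2.62e-09). HMGCS1, a cholesterol-synthesis gene whose RNA is known to rise when statins are given, had 24.9, 25.5 and 25.8 FPKM in the shSHP2CPT11 libraries and 105, 101 and 103 FPKM in the LovaCPT11 libraries, against 29.7, 31.2 and 25.2 FPKM in the CPT11 libraries. In the LovaCPT11 libraries HMGCS1 was higher than in the CPT11 libraries, by 1.81 ± 0.07 (SE, adjusted p = 1.18e-07), whereas the shSHP2CPT11 libraries, whose treatment label also names lovastatin, overlapped with the CPT11 libraries. Of the colon epithelial markers, EPCAM ranged from 62.0 to 87.8 FPKM and KRT8 from 256 to 337 FPKM, and VIL1 was at most 0.144 FPKM. Of the 5 such markers tested, 4 were higher in shSHP2CPT11 against untreated cells and 2 against CPT11 cells. CDH1 (E-cadherin) had 13.98, 13.9 and 12.8 FPKM in the shSHP2CPT11 libraries, against 8.42, 8.79 and 7.61 FPKM in the CPT11 libraries (log2 difference 0.65 ± 0.07 SE, adjusted p = 3.56e-04). In LovaCPT11 against untreated cells 2 were higher and 1 lower. The summed epithelial markers were 575.7 to 586.8 FPKM in the shSHP2CPT11 libraries, 565.2 to 592.2 FPKM in the LovaCPT11 libraries, 513.1 to 547.9 FPKM in the CPT11 libraries and 499.6 to 547 FPKM in the untreated libraries. The 9 markers of other cell types summed to 7.91 to 9.02 FPKM in the shSHP2CPT11 libraries, 7.30 to 7.83 FPKM in the LovaCPT11 libraries, 6.05 to 7.64 FPKM in the CPT11 libraries and 4.17 to 5.09 FPKM in the untreated libraries. COL1A1 and ACTA2, which some epithelial lines also make, gave most of these sums. Of the 3 such markers tested, 2 were higher against untreated cells in shSHP2CPT11 and in LovaCPT11 cells (ACTA2 by 0.88 and 0.76, COL1A1 by 0.54 and 0.36). ACTA2 was also higher in CPT11 against untreated cells (0.77), and COL1A1 in shSHP2CPT11 against CPT11 cells (0.37). PTPRC, CD3E, CD68, PECAM1, COL1A2 and DCN, which mark leukocytes, endothelium and fibroblasts, were at most 0.113 FPKM in any library. No level is given here for VWF, an endothelial marker and the last of the 9. The part of these markers in the results was not tested.

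One library stood apart in the values that follow. Over the 83 members tested, CPT11 replicate 3 lay 0.417 log2 units (root mean square) from the mean of its group, against 0.0866 to 0.268 in the other 11 libraries. Its counts departed from those of CPT11 replicates 1 and 2 by a chi-square per degree of freedom of 23.0 and 26.9, whereas the other pairs of replicates gave 2.01 to 8.72. Its dependence on GC content also differed: across coding genes, log2 deviations rose by 0.09 for each 10 percentage points of GC in CPT11 replicate 3 and fell by 0.17 and 0.20 in CPT11 replicates 1 and 2. Counts against the CPT11 group are therefore given with and without it.

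Of the 90 genes, 83 passed the filter on low values (at least 10 reads at median library size in at least 3 libraries), namely 38 of complex I, 4 of complex II, 9 of complex III, 13 of complex IV and 19 of complex V. ATP5F1B, the catalytic beta subunit of ATP synthase, was the most abundant at a mean of 402 FPKM over the 12 libraries. NDUFS5 led complex I at 301 FPKM, UQCRH led complex III at 119.8 FPKM, COX6B1 led complex IV at 90.7 FPKM and SDHB led complex II at 35.7 FPKM. The lowest members that passed in complexes I, IV, V, III and II were NDUFA4L2 at 0.445 FPKM, COX6B2 at 0.465 FPKM, ATP5S at 0.930 FPKM, UQCRHL at 2.19 FPKM and SDHC at 8.62 FPKM. The 7 genes that did not pass were tissue-restricted isoforms, a gene copy and readthrough genes. COX6A2, the muscle isoform of COX6A1, COX7B2, known from testis, and the readthrough gene NDUFC2-KCTD14 had 0 reads in all 12 libraries, COX4I2, known from lung, had 7 reads in all, COX8C, known from testis, had 18, the ATP5MG copy ATP5MGL had 19 and the readthrough gene ATP5MF-PTCD1 had 26. HCT-116 cells thus expressed COX4I1, COX6A1, COX7B and COX8A at 74.1, 21.6, 23.8 and 78.3 FPKM with their alternative isoforms at or near 0. COX7A1, the heart and muscle isoform, had a mean of 0.919 FPKM beside 54.5 FPKM for COX7A2.

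**Figure D1:**
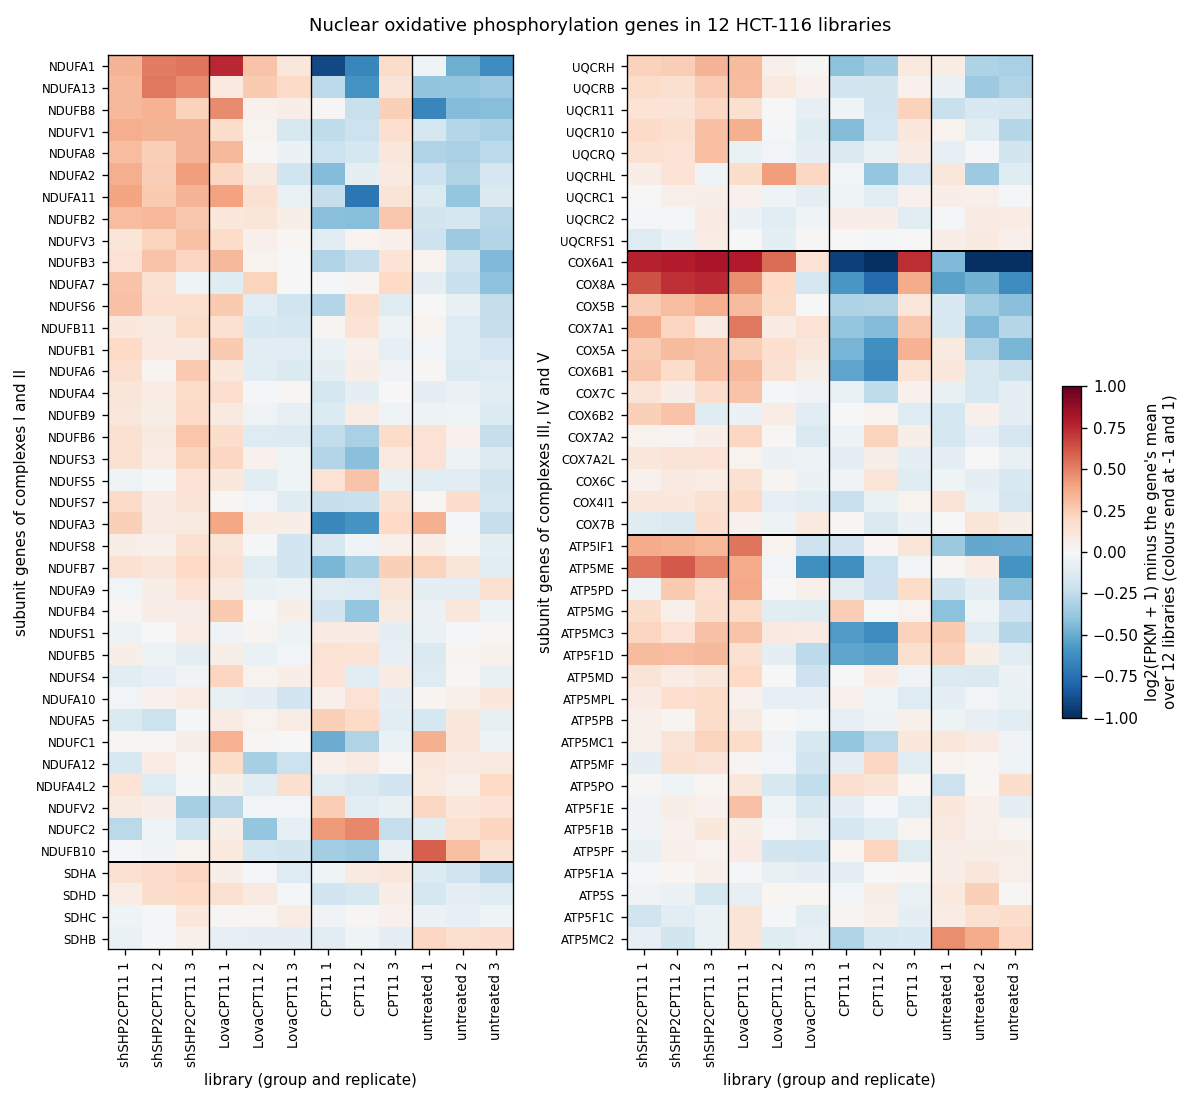
Each row is 1 of the subunit genes that passed the filter (82 of 83 are drawn), grouped by complex and ordered by the log2 difference between the shSHP2CPT11 and untreated cells, and each column is 1 library. Colour gives log2(FPKM + 1) minus the gene's mean over the 12 libraries. The shSHP2CPT11 columns are mostly red, CPT11 replicates 1 and 2 mostly blue, and CPT11 replicate 3 looks unlike its group, with COX6A1 at 31.6 FPKM there.

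Differences were tested with limma on log2(FPKM + 1) over all 18047 genes that passed, with Benjamini-Hochberg adjustment over all of them and a threshold of 0.05. The first question was what CPT-11 alone changed. In the CPT11 cells 3 members rose and 5 fell relative to untreated cells, where 8.85% of all genes tested were higher and 7.72% lower (16.6% in either direction). SDHA, NDUFB8 and NDUFV3 rose. NDUFB10, NDUFC1, NDUFA4L2, SDHB and ATP5MC2 fell. The median log2 difference of the 83 members was 0.01, beside -0.01 for all genes. No member of complexes III or IV passed the test. With any 1 library left out, none of the 3 higher calls and 3 of the 5 lower calls (NDUFB10, SDHB and ATP5MC2) stood in every fit. Without CPT11 replicate 3, 4 members were higher and 15 lower, beside 11.6% and 12.9% of all genes.

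Adding lovastatin to CPT-11 gave no call. No member passed in the LovaCPT11 cells against the CPT11 cells with limma or with voom on recovered reads. With limma, 0.393% of all genes were higher and 0.072% lower (0.465% in either direction). In that fit 19 members had an unadjusted p under 0.05. The share of all genes under that unadjusted threshold was not counted, so the 19 do not set the members apart. Of the 83 members, 60 had a positive difference, with a median of 0.09 beside 0.00 for all genes. This result rested on CPT11 replicate 3: without it, 26 members were higher and 3 lower, beside 15.9% and 14.3% of all genes.

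The cells with SHP2 silenced before CPT-11 were compared with the same CPT11 libraries as the LovaCPT11 cells, and the calls were in 1 direction. In the shSHP2CPT11 cells 19 members were higher and 0 lower than in the CPT11 cells, where 10% of all genes were higher and 12% lower (22% in either direction). The 19 were 8 genes of complex I, 1 of complex II, 3 of complex III, 4 of complex IV and 3 of complex V. The median over the 83 members was 0.18 beside 0.00 for all genes, and 68 of 83 differences were positive. All 19 had groups that did not overlap, as did 31 of the 83 members in all. How many of all genes tested had groups without overlap was not counted, so these counts do not set the members apart. Without CPT11 replicate 3, 38 members were higher and 2 lower (21.6% and 21.9% of all genes). With any 1 other library of these groups left out, the count was 1 to 3 higher and 0 lower. Of all genes, 2.16% to 4.25% were then higher and 3.5% to 6.73% lower. In each of these fits the share of members called higher (1.2% to 3.61%) was under that of all genes. With only these 6 libraries in the fit, the count was 1 higher and 0 lower (1.2% higher), beside 1.01% and 1.49% of all genes.

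Against untreated cells the combined treatments gave 36 calls in shSHP2CPT11 cells and 16 in LovaCPT11 cells. In the shSHP2CPT11 cells 31 members were higher and 5 lower, where 18.3% of all genes were higher and 19.5% lower (37.8% in either direction), and the median was 0.19 beside 0.00 for all genes. In the LovaCPT11 cells 12 members were higher and 4 lower than in untreated cells, where 14.7% of all genes were higher and 14.3% lower (29% in either direction), a share of members (14.5% higher and 4.82% lower) close to or under that of all genes, with a median of 0.09 beside 0.00. Both comparisons share the untreated libraries. The 36 calls of the shSHP2CPT11 cells comprised 14 higher and 1 lower in complex I, 2 and 1 in complex II, 4 and 0 in complex III, 5 and 0 in complex IV, and 6 and 3 in complex V. Of the 83 members, 41 passed in none of the 5 comparisons. The same count was not made over all genes, so it does not set the members apart. Scaled to the total of assigned reads instead of the deposited size factors, the shSHP2CPT11 cells had 42 members higher and 1 lower, with all genes at 24% higher and 14.3% lower, and the LovaCPT11 cells had 20 higher and 3 lower, with all genes at 18% and 10.8%. On that scale CPT11 cells had 6 members higher and 3 lower against untreated cells (all genes 10.6% and 5.57%), and shSHP2CPT11 cells had 25 higher and 0 lower against CPT11 cells (13.1% and 9.09%). With any 1 library left out, 14 of the 31 higher and 2 of the 5 lower calls of the shSHP2CPT11 cells against untreated cells stood in every fit. The 14 were NDUFV3, NDUFA8, NDUFB8, NDUFA13, NDUFV1, NDUFA2, SDHA, SDHD, UQCRB, UQCRQ, COX5B, COX8A, COX6A1 and ATP5IF1, and the 2 were SDHB and ATP5MC2. In LovaCPT11 cells those that stood were NDUFB8, NDUFV3, NDUFA13, NDUFA8, ATP5IF1, SDHB and ATP5MC2. How many calls among all genes stood in every such fit was not counted for any comparison.

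**Figure D2:**
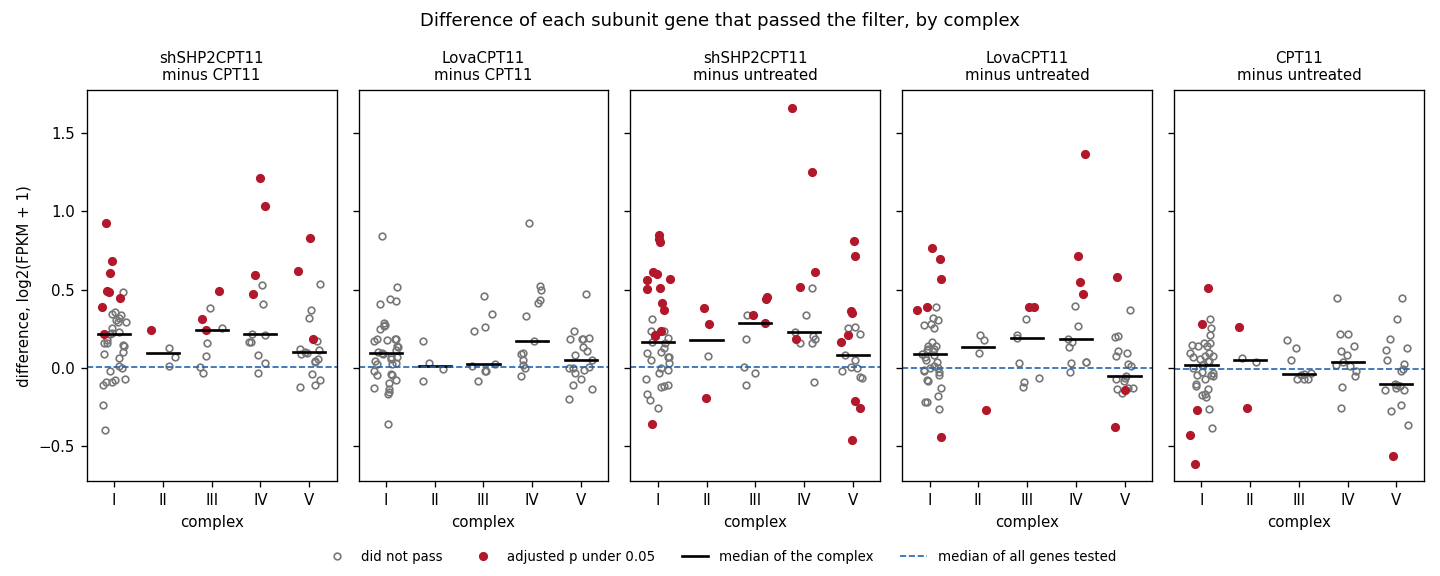
Points are the log2 differences of the 83 subunit genes that passed, by complex, in the 5 comparisons, filled where the adjusted p was under 0.05. Black bars are medians of a complex and the dashed line is the median of all genes tested. In the shSHP2CPT11 minus CPT11 panel the 19 filled points all lie above 0, and in the LovaCPT11 minus CPT11 panel none is filled.

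In complex I, the catalytic core subunit NDUFV1 was called, while the core subunits NDUFS1, NDUFS3, NDUFS7, NDUFS8 and NDUFV2 passed in none of the 5 comparisons. The other calls were accessory subunits, the proteins that surround the core, and NDUFA4 and NDUFA4L2, which are counted with complex I here by symbol only. NDUFV2 is uncertain, since its named pseudogene carried reads equal to 56.7% of its own, 125 against 152 for NDUFV2 in the shSHP2CPT11 libraries and 59 against 180 in the untreated libraries. NDUFA9, an accessory subunit near the quinone site, passed in no comparison. NDUFS1, which carries iron-sulfur clusters, had 10.9, 11.4 and 11.98 FPKM in the shSHP2CPT11 libraries, against 10.8, 11.2 and 11.5 FPKM in the untreated libraries, and the groups overlapped. NDUFV1, which binds NADH and flavin, had 37.9, 37.2 and 37.2 FPKM in the shSHP2CPT11 libraries, 33.1, 29.9 and 26.1 FPKM in the LovaCPT11 libraries, 24.4, 25.1 and 32.95 FPKM in the CPT11 libraries and 25.8, 23.8 and 23.1 FPKM in the untreated libraries. All 3 shSHP2CPT11 libraries lay above the other 9. Its difference in the shSHP2CPT11 cells was 0.45 ± 0.11 (SE, adjusted p = 0.0189) against CPT11 cells and 0.61 ± 0.11 (SE, adjusted p = 0.00137) against untreated cells.

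NDUFA1, a small membrane subunit encoded on the X chromosome (chrX:119871487-119876662, plus strand, GRCh38), had 48.1, 54.5 and 55.4 FPKM in the shSHP2CPT11 libraries, 64.5, 46.3 and 41.0 FPKM in the LovaCPT11 libraries, 19.7, 23.7 and 43.1 FPKM in the CPT11 libraries and 36.8, 26.7 and 24.1 FPKM in the untreated libraries. CPT11 replicate 3 lay within the range of the LovaCPT11 libraries, while every shSHP2CPT11 library was above every CPT11 and untreated library. The difference in the shSHP2CPT11 cells was 0.92 ± 0.26 (SE, adjusted p = 0.0294) against CPT11 cells, a fold of 1.90 on the FPKM + 1 scale, and 0.85 ± 0.26 (SE, adjusted p = 0.0228) against untreated cells. In the LovaCPT11 cells it was 0.77 ± 0.26 (SE, adjusted p = 0.0433) against untreated cells. RNF113A, on the opposite strand, overlaps 44.5% of the NDUFA1 exon bases. NDUFA13, also known as GRIM-19, had 2.63, 3.17 and 3.01 FPKM in the shSHP2CPT11 libraries, 2.10, 2.48 and 2.31 FPKM in the LovaCPT11 libraries, 1.41, 0.917 and 2.16 FPKM in the CPT11 libraries and 1.199, 1.21 and 1.25 FPKM in the untreated libraries. It was the only member called in the shSHP2CPT11 cells against CPT11 cells whose call stood with any 1 of the 6 libraries left out (log2 difference 0.68 ± 0.15 SE, adjusted p = 0.0117). After correction for GC and length the difference was 0.40 (adjusted p = 0.0268), and in LovaCPT11 against untreated cells it was 0.37, against 0.57 uncorrected. Other annotated genes on the same strand overlap 21.0% of the NDUFA13 exon bases. NDUFA8, a subunit of the intermembrane side, differed by 0.60 ± 0.10 (SE, adjusted p = 9.91e-04) in the shSHP2CPT11 cells against untreated cells and by 0.39 ± 0.10 (SE, adjusted p = 0.0234) against CPT11 cells.

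NDUFB8 and NDUFV3 were higher than in untreated cells under each of the 3 treatments, which share the untreated libraries. NDUFB8, a membrane-arm subunit often used as a marker of assembled complex I, had 5.16, 5.28 and 4.796 FPKM in the shSHP2CPT11 libraries, 5.85, 4.07 and 4.17 FPKM in the LovaCPT11 libraries, 3.98, 3.24 and 4.81 FPKM in the CPT11 libraries and 2.14, 2.65 and 2.68 FPKM in the untreated libraries, and no treated library overlapped with an untreated one. The differences against untreated cells were 0.80 ± 0.14 (SE, adjusted p = 0.00102) in shSHP2CPT11 cells, 0.70 ± 0.14 (SE, adjusted p = 0.00325) in LovaCPT11 cells and 0.51 ± 0.14 (SE, adjusted p = 0.0263) in CPT11 cells. Of the NDUFB8 exon bases, 33.8% lie under another annotated gene on the same strand and 16.3% under HIF1AN on the opposite strand. NDUFV3, a small subunit of the NADH-oxidising module, differed by 0.50, 0.37 and 0.28 (adjusted p = 4.01e-04, 0.00350 and 0.0247) in the same order of groups.

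NDUFB10, a membrane-arm subunit, went the other way, with 85.6, 84.2 and 88.3 FPKM in the shSHP2CPT11 libraries, 92.4, 76.4 and 75.6 FPKM in the LovaCPT11 libraries, 67.6, 67.0 and 81.9 FPKM in the CPT11 libraries and 131, 107 and 96.0 FPKM in the untreated libraries. All 9 treated libraries were below all 3 untreated ones. It fell by 0.35 in shSHP2CPT11 cells, by 0.44 in LovaCPT11 cells and by 0.61 in CPT11 cells on the log2 scale (adjusted p = 0.0336, 0.0164 and 0.00478). With 1 library left out, the call in CPT11 cells stood in 6 of 6 fits, in LovaCPT11 cells in 3 of 6 and in shSHP2CPT11 cells in 1 of 6, where the adjusted p reached 0.116. After correction for GC and length its differences were -0.61, -0.59 and -0.61 (adjusted p = 8.79e-05, 1.24e-04 and 1.42e-04) in the same order of groups. NDUFC1 fell only in CPT11 cells against untreated cells among the 5 comparisons, with a log2 difference of -0.43 ± 0.13 (SE, adjusted p = 0.0433). NDUFA4, once counted in complex I and now placed in complex IV, was higher in shSHP2CPT11 cells by 0.22 ± 0.06 (SE, adjusted p = 0.0356) against CPT11 cells. Its paralog NDUFA4L2 stood at 0.258 to 0.652 FPKM, and its lower call in CPT11 cells (log2 difference -0.27 ± 0.08 SE, adjusted p = 0.0492) rested on 12 to 27 reads per library and was lost when any 1 library of the 2 groups was left out and after correction for GC and length (adjusted p = 0.202).

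Complex II held subunits called in opposite directions. SDHA, the flavoprotein that oxidises succinate, had 23.9, 24.3 and 24.99 FPKM in the shSHP2CPT11 libraries, 22.4, 21.2 and 19.4 FPKM in the LovaCPT11 libraries, 20.7, 22.9 and 23.2 FPKM in the CPT11 libraries and 19.4, 18.5 and 17.5 FPKM in the untreated libraries. Every CPT11 and shSHP2CPT11 library was above every untreated library, and the differences were 0.38 ± 0.06 (SE, adjusted p = 9.31e-04) in shSHP2CPT11 cells and 0.26 ± 0.06 (SE, adjusted p = 0.0192) in CPT11 cells. SDHB, the iron-sulfur subunit bound to SDHA, had 34.0, 35.1 and 36.8 FPKM in the shSHP2CPT11 libraries, 33.6, 33.3 and 33.3 FPKM in the LovaCPT11 libraries, 33.1, 34.4 and 33.3 FPKM in the CPT11 libraries and 41.2, 39.8 and 40.2 FPKM in the untreated libraries. All treated libraries were below the 3 untreated ones. Its differences against untreated cells were -0.19 ± 0.04 (SE, adjusted p = 0.00571) in shSHP2CPT11 cells, -0.27 ± 0.04 (SE, adjusted p = 0.00102) in LovaCPT11 cells and -0.26 ± 0.04 (SE, adjusted p = 0.00217) in CPT11 cells, and these 3 calls stood with any 1 library left out. SDHD, a membrane anchor, was higher in shSHP2CPT11 cells by 0.28 ± 0.07 (SE, adjusted p = 0.0121) against untreated cells. SDHC, the other anchor, passed in no comparison, at 8.09 to 9.35 FPKM over all libraries. Named SDHA pseudogenes carried reads equal to 19.3% of those assigned to SDHA, so part of its count may lie with near-identical copies.

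In complex III the calls were in small subunits. UQCRC1 and UQCRC2, the core proteins, and UQCRFS1, the Rieske iron-sulfur protein, passed in no comparison, with differences of 0.00, -0.03 and -0.11 in shSHP2CPT11 cells against untreated cells (adjusted p = 0.962, 0.692 and 0.159). UQCRH, the hinge protein at the cytochrome c1 contact, had 139, 140.2 and 149 FPKM in the shSHP2CPT11 libraries, 147, 122 and 119 FPKM in the LovaCPT11 libraries, 88.4, 93.0 and 126 FPKM in the CPT11 libraries and 124, 95.2 and 94.1 FPKM in the untreated libraries. The shSHP2CPT11 libraries were above those of CPT11 cells and of untreated cells, with differences of 0.49 ± 0.14 (SE, adjusted p = 0.0341) and 0.46 ± 0.14 (SE, adjusted p = 0.0265). UQCRB and UQCRQ, which bind near the quinone site and cytochrome b, were higher in shSHP2CPT11 cells by 0.31 and 0.24 against CPT11 cells (adjusted p = 0.0430 and 0.0332), and by 0.44 and 0.29 against untreated cells (adjusted p = 0.00460 and 0.00730). After correction for GC and length the UQCRQ difference against untreated cells was 0.18 (adjusted p = 0.0271). UQCR11 was higher by 0.34 ± 0.10 (SE, adjusted p = 0.0192) in shSHP2CPT11 cells against untreated cells, a call lost after that correction, at 0.15 (adjusted p = 0.103). UQCRHL, a copy of UQCRH whose reads cannot be told apart from those of its parent with certainty, was called higher in LovaCPT11 cells against untreated cells, by 0.39 ± 0.13 (SE, adjusted p = 0.0449).

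Complex IV held the greatest log2 differences of all members. COX6A1, a regulatory subunit of cytochrome c oxidase (chr12:120438090-120440742, plus strand, GRCh38), had 32.4, 32.8 and 33.4 FPKM in the shSHP2CPT11 libraries, 32.9, 27.9 and 20.7 FPKM in the LovaCPT11 libraries, 9.23, 8.31 and 31.6 FPKM in the CPT11 libraries and 13.4, 7.89 and 8.62 FPKM in the untreated libraries. CPT11 replicate 3 was more than 3 times as high as either of the other CPT11 libraries and lay within the range of the LovaCPT11 libraries, just under the lowest shSHP2CPT11 library. Against untreated cells the difference was 1.66 ± 0.39 (SE, adjusted p = 0.00644) in shSHP2CPT11 cells, a fold of 3.16 on the FPKM + 1 scale, and 1.37 ± 0.39 (SE, adjusted p = 0.0217) in LovaCPT11 cells. Against CPT11 cells it was 1.21 ± 0.39 (SE, adjusted p = 0.0465) in shSHP2CPT11 cells. Without CPT11 replicate 3 that value became 1.79, and without any 1 of the other 5 libraries the call was lost. Its GC content, 47.8%, was near the median of the members, and correction for GC and length left 1.195 against CPT11 cells (adjusted p = 0.0581). Named COX6A1 pseudogenes carried reads equal to 15.9% of those of COX6A1.

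COX8A, a short membrane subunit, had 113, 121 and 123.2 FPKM in the shSHP2CPT11 libraries, 101, 83.7 and 64.6 FPKM in the LovaCPT11 libraries, 48.1, 42.1 and 94.3 FPKM in the CPT11 libraries and 49.9, 52.0 and 46.5 FPKM in the untreated libraries. All 3 shSHP2CPT11 libraries were the highest of the 12, and 34.5% of its exon bases lie under another annotated gene on the same strand. Its difference in shSHP2CPT11 cells was 1.04 ± 0.24 (SE, adjusted p = 0.0168) against CPT11 cells and 1.25 ± 0.24 (SE, adjusted p = 0.00226) against untreated cells. COX5B, which binds zinc, had 83.9, 87.8 and 91.1 FPKM in the shSHP2CPT11 libraries, 88.2, 80.4 and 70.9 FPKM in the LovaCPT11 libraries, 57.0, 57.1 and 76.8 FPKM in the CPT11 libraries and 63.5, 55.4 and 52.7 FPKM in the untreated libraries. It was higher in shSHP2CPT11 cells by 0.61 ± 0.12 (SE, adjusted p = 0.00218) and in LovaCPT11 cells by 0.47 ± 0.12 (SE, adjusted p = 0.0117), both against untreated cells, with no overlap between groups. COX6B1, on the intermembrane side, differed by 0.59 ± 0.17 (SE, adjusted p = 0.0315) in shSHP2CPT11 against CPT11 cells.

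COX5A, a subunit of the matrix side, had 61.9, 64.7 and 63.5 FPKM in the shSHP2CPT11 libraries, against 37.3, 33.5 and 66.2 FPKM in the CPT11 libraries, and did not pass (log2 difference 0.53 ± 0.21 SE, adjusted p = 0.0858). COX4I1, the largest nuclear subunit, COX6C and COX7C also passed in no comparison, with differences of 0.16, 0.16 and 0.23 in shSHP2CPT11 cells against untreated cells. COX7A2L, known for its part in supercomplexes, was higher by 0.18 ± 0.06 (SE, adjusted p = 0.0249) in the same cells, and COX7A2 did not pass (log2 difference 0.19 ± 0.09 SE, adjusted p = 0.118). COX7A1 was called higher against untreated cells in shSHP2CPT11 cells (log2 difference 0.52 ± 0.18 SE, adjusted p = 0.0433) and in LovaCPT11 cells (log2 difference 0.55 ± 0.18 SE, adjusted p = 0.0432), from 6 to 28 reads per library. With 1 library left out, these calls stood in 1 of 6 and in 0 of 6 fits, and after correction for GC and length the differences were 0.23 and 0.37 (adjusted p = 0.171 and 0.0366).

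**Figure D3:**
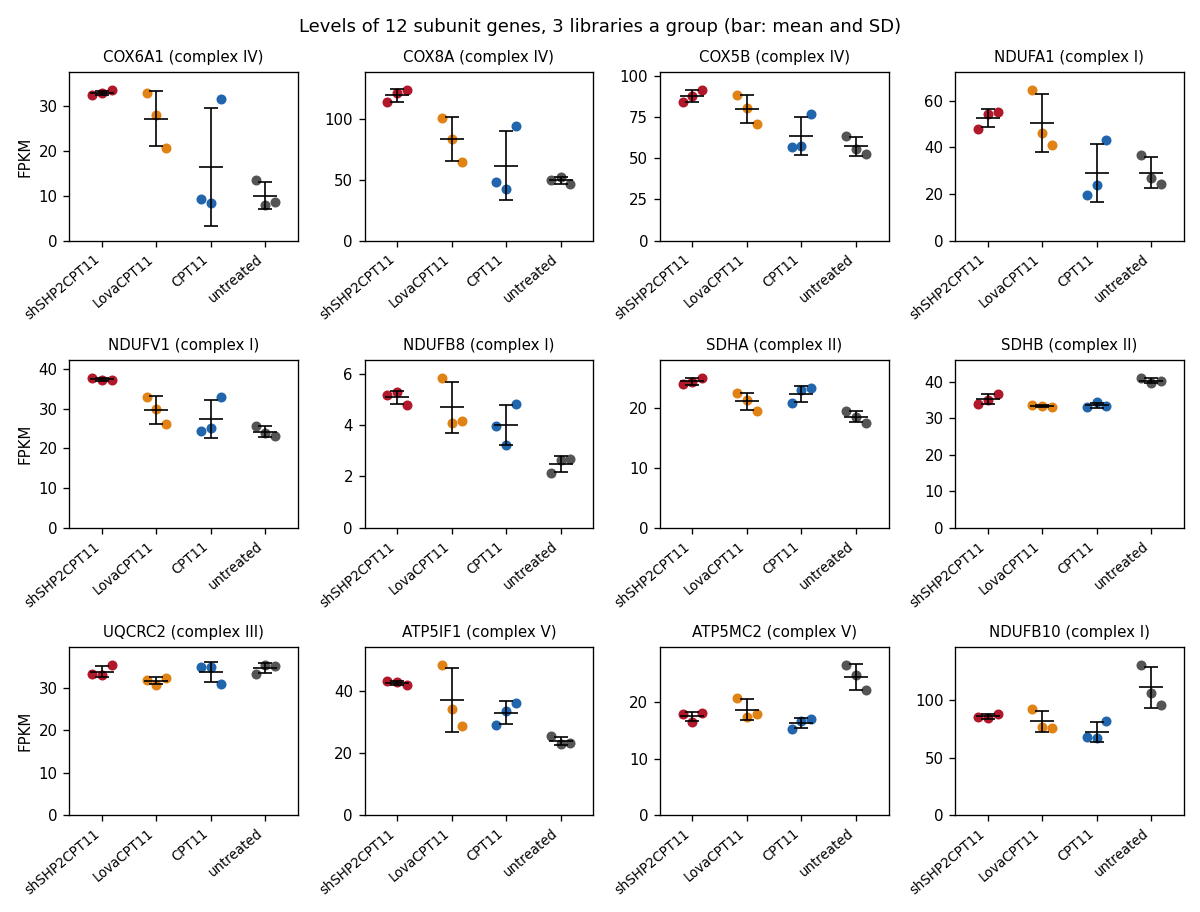
FPKM of 12 subunit genes in each library, with bars for the mean and SD of 3 libraries, on axes that start at 0. COX6A1, COX8A and NDUFA1 are high in all shSHP2CPT11 libraries and in CPT11 replicate 3. In all LovaCPT11 libraries they are also above every untreated library, and NDUFA1 is highest in LovaCPT11 replicate 1. SDHB and NDUFB10 are highest in the untreated libraries, and UQCRC2 stays between 30.8 and 35.5 FPKM.

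In complex V, the catalytic subunit gene ATP5F1B had 392, 414 and 431 FPKM in the shSHP2CPT11 libraries, against 427, 416 and 408 FPKM in the untreated libraries, and passed in no comparison, with overlapping groups. ATP5F1A, the alpha subunit, passed only as lower in LovaCPT11 cells against untreated cells (log2 difference -0.14 ± 0.05 SE, adjusted p = 0.0427), a call lost when any 1 library was left out. ATP5F1C, the gamma subunit of the rotor, fell in shSHP2CPT11 cells against untreated cells, with a log2 difference of -0.26 ± 0.07 (SE, adjusted p = 0.0115). After correction for GC and length its difference was -0.14 (adjusted p = 0.0488). ATP5S, a factor B-like protein, was called lower there (log2 difference -0.21 ± 0.08 SE, adjusted p = 0.0483), but the call stood in 1 of 6 fits with a library left out, and the corrected difference was -0.02 (adjusted p = 0.826). ATP5F1D, the delta subunit of the rotor, had 59.0, 58.5 and 59.3 FPKM in the shSHP2CPT11 libraries, against 32.4, 32.0 and 52.8 FPKM in the CPT11 libraries, and was higher by 0.62 ± 0.17 (SE, adjusted p = 0.0285). It had the highest GC content of the members, 67.6%, and after correction for GC and length the difference was 0.15 (adjusted p = 0.0930). ATP5PO, a stalk subunit, passed in no comparison.

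The 3 genes for the c-ring of ATP synthase, ATP5MC1, ATP5MC2 and ATP5MC3, encode the same mature protein and did not share calls. ATP5MC2 had 17.9, 16.6 and 18.1 FPKM in the shSHP2CPT11 libraries, 20.8, 17.4 and 17.9 FPKM in the LovaCPT11 libraries, 15.2, 16.7 and 17.0 FPKM in the CPT11 libraries and 26.6, 24.8 and 22.1 FPKM in the untreated libraries. All 9 treated libraries were below all 3 untreated ones, and its differences against untreated cells were -0.46 ± 0.08 (SE, adjusted p = 0.00141) in shSHP2CPT11 cells, -0.37 ± 0.08 (SE, adjusted p = 0.00636) in LovaCPT11 cells and -0.56 ± 0.08 (SE, adjusted p = 9.83e-04) in CPT11 cells. ATP5MC1 and ATP5MC3 passed in no comparison, with 0.08 and 0.26 in shSHP2CPT11 cells against untreated cells (adjusted p = 0.618 and 0.330). The difference between the c-ring genes was not itself tested.

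ATP5IF1, the inhibitor that blocks ATP hydrolysis when the proton gradient fails, had 43.2, 42.8 and 42.1 FPKM in the shSHP2CPT11 libraries, 48.5, 34.1 and 28.6 FPKM in the LovaCPT11 libraries, 29.02, 33.7 and 36.3 FPKM in the CPT11 libraries and 25.5, 23.0 and 23.2 FPKM in the untreated libraries. Every treated library was above every untreated one. It was higher by 0.81 ± 0.15 (SE, adjusted p = 0.00157) in shSHP2CPT11 cells and by 0.58 ± 0.15 (SE, adjusted p = 0.0132) in LovaCPT11 cells against untreated cells, and in CPT11 cells its difference of 0.45 ± 0.15 (SE, adjusted p = 0.0644) did not pass. ATP5ME, the e subunit of the membrane part, differed by 0.83 ± 0.24 (SE, adjusted p = 0.0348) in shSHP2CPT11 against CPT11 cells, but 61.6% of its exon bases lie under MYL5 on the opposite strand, and whether counting used strand is not given in the sources used here. ATP5MPL and ATP5MG, small membrane subunits, were higher in shSHP2CPT11 cells against untreated cells by 0.21 and 0.35 (adjusted p = 0.0174 and 0.0312).

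Of the 13 subunits encoded by mitochondrial DNA, 1 was higher and 0 lower in shSHP2CPT11 against CPT11 cells, with a median of -0.12 beside 0.18 for the nuclear members. That gene was MT-ND3, at 3993, 4109 and 4493 FPKM in shSHP2CPT11 libraries, against 2798, 2346 and 3292 FPKM in CPT11 libraries (log2 difference 0.59 ± 0.16 SE, adjusted p = 0.0252). The difference between the mitochondrial and nuclear lists was not tested. Among electron carriers, CYC1, the cytochrome c1 of complex III, was higher by 0.55 ± 0.15 (SE, adjusted p = 0.0284) in shSHP2CPT11 against CPT11 cells, and CYCS, cytochrome c, was higher by 0.34 ± 0.10 (SE, adjusted p = 0.0245) in LovaCPT11 against untreated cells. Of 52 assembly factors tested, 8 were higher and 3 lower in shSHP2CPT11 against CPT11 cells (15.4% and 5.77%, beside 10% and 12% of all genes). COX14, which guides the translation of the mitochondrially encoded COX1 subunit, was higher by 0.67 ± 0.14 (SE, adjusted p = 0.00987) there, and COX16 was lower, with a difference of -0.44 ± 0.10 (SE, adjusted p = 0.0127). In CPT11 cells NDUFAF3 and COA1 fell against untreated cells, with log2 differences of -0.43 and -0.23 (adjusted p = 0.00356 and 0.0174).

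The citric acid cycle feeds complexes I and II. Against untreated cells, 4 of its 18 genes were higher and 6 lower in shSHP2CPT11 cells (22.2% and 33.3%, beside 18.3% and 19.5% of all genes). In LovaCPT11 cells 2 were higher and 5 lower (11.1% and 27.8%, beside 14.7% and 14.3%), and in CPT11 cells 2 were higher and 4 lower (11.1% and 22.2%, beside 8.85% and 7.72%). IDH2, the NADP-dependent isocitrate dehydrogenase, had 27.6, 28.03 and 27.4 FPKM in the shSHP2CPT11 libraries, 22.7, 20.5 and 20.03 FPKM in the LovaCPT11 libraries, 22.7, 23.3 and 22.2 FPKM in the CPT11 libraries and 15.8, 15.2 and 15.05 FPKM in the untreated libraries, with every treated library above every untreated one. It was higher by 0.81 ± 0.05 (SE, adjusted p = 1.37e-06), 0.43 ± 0.05 (SE, adjusted p = 1.45e-04) and 0.54 ± 0.05 (SE, adjusted p = 5.13e-05) in the 3 treatments in that order. SUCLG2, a subunit of succinyl-CoA ligase, was lower, with log2 differences of -0.53, -0.47 and -0.35 (adjusted p = 6.53e-05, 1.76e-04 and 0.00206).

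Of 15 transcriptional regulators tested, 3 were higher and 7 lower in shSHP2CPT11 cells against untreated cells (20% and 46.7%, beside 18.3% and 19.5% of all genes). In LovaCPT11 cells 0 were higher and 8 lower (53.3% lower, beside 14.3%), and in CPT11 cells 0 were higher and 5 lower (33.3% lower, beside 7.72%). NRF1 itself had 5.16, 4.34 and 4.45 FPKM in the shSHP2CPT11 libraries, 4.19, 4.32 and 4.82 FPKM in the LovaCPT11 libraries, 4.55, 3.75 and 4.57 FPKM in the CPT11 libraries and 7.42, 7.63 and 7.65 FPKM in the untreated libraries. Every treated library was below every untreated library, with differences of -0.60 ± 0.09 (SE, adjusted p = 3.11e-04) in shSHP2CPT11 cells, -0.66 ± 0.09 (SE, adjusted p = 2.37e-04) in LovaCPT11 cells and -0.70 ± 0.09 (SE, adjusted p = 2.67e-04) in CPT11 cells. GABPB1, the partner of the ETS factor GABPA, differed by -0.70 ± 0.10 (SE, adjusted p = 2.89e-04) in shSHP2CPT11 against untreated cells. MYC had 120.4, 121 and 121 FPKM in the shSHP2CPT11 libraries, 81.0, 75.6 and 78.4 FPKM in the LovaCPT11 libraries, 74.6, 75.3 and 80.1 FPKM in the CPT11 libraries and 104, 98.3 and 92.1 FPKM in the untreated libraries, and in shSHP2CPT11 cells was higher by 0.65 ± 0.05 (SE, adjusted p = 7.36e-05) against CPT11 cells and by 0.29 ± 0.05 (SE, adjusted p = 0.00169) against untreated cells. ESRRA, a nuclear receptor that acts on mitochondrial genes, was higher in shSHP2CPT11 cells by 0.82 ± 0.22 (SE, adjusted p = 0.0280) against CPT11 cells. In that comparison 2 of the 15 regulators were higher and 3 lower (13.3% and 20%, beside 10% and 12% of all genes). HIF1A and GABPB1 were among those lower, with differences of -0.68 ± 0.14 and -0.41 ± 0.10 (SE, adjusted p = 0.0113 and 0.0184). PPARGC1A, the coactivator best known for raising mitochondrial gene expression, did not pass the filter and was at most 0.0113 FPKM.

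Of 96 genes with RPL or RPS symbols tested, which are mainly cytosolic ribosomal proteins but include ribosomal S6 kinases, 26 were higher and 3 lower in shSHP2CPT11 against CPT11 cells (27.1% and 3.12%, beside 10% and 12% of all genes), with a median of 0.20 beside 0.18 for the members. RPL30 was among those higher (log2 difference 0.33 ± 0.08 SE, adjusted p = 0.0195) and the kinase RPS6KA3 among those lower (log2 difference -0.62 ± 0.09 SE, adjusted p = 0.00194). Of 77 mitochondrial ribosomal proteins, 15 were higher and 4 lower in that comparison (19.5% and 5.19%), with a median of 0.09. Against untreated cells, 20 of them were higher and 18 lower in shSHP2CPT11 cells (26% and 23.4%, beside 18.3% and 19.5% of all genes). In LovaCPT11 cells 5 were higher and 20 lower (6.49% and 26%, beside 14.7% and 14.3%), where MRPL11 was lower, with a log2 difference of -0.58 ± 0.08 (SE, adjusted p = 5.05e-04). The 96 genes with RPL or RPS symbols were close to the members in shSHP2CPT11 against untreated cells. There 29 were higher and 6 lower (30.2% and 6.25%, beside 37.3% and 6.02% of members), with a median of 0.18 beside 0.19 for the members. In LovaCPT11 against untreated cells 10 were higher and 7 lower (10.4% and 7.29%).

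The libraries differed in how levels depended on GC content and gene length, and the members are shorter than most genes. Their median length was 2615 bases, against 5060 bases for the 13732 coding genes tested, and 47 of 83 were under 3000 bases. Their median GC content was 48.3%, against 49.9%. The slope of log2 deviation for each 10 percentage points of GC was 0.15, 0.13 and 0.11 in the shSHP2CPT11 libraries, 0.08, 0.06 and 0.02 in the LovaCPT11 libraries, -0.17, -0.20 and 0.09 in the CPT11 libraries and -0.01, -0.11 and -0.16 in the untreated libraries. The median log2 deviation of the members was 0.12, 0.09 and 0.15 in shSHP2CPT11, 0.15, -0.01 and -0.06 in LovaCPT11, -0.11, -0.11 and 0.04 in CPT11 and -0.04, -0.05 and -0.12 in untreated libraries. After correction of each library for GC and length these medians were 0.11, 0.09 and 0.15 in shSHP2CPT11, 0.14, 0.00 and -0.07 in LovaCPT11, -0.14, -0.08 and 0.03 in CPT11 and -0.03, -0.08 and -0.13 in untreated libraries. The shSHP2CPT11 libraries lay above 0 and the untreated libraries below 0 in both sets of values. LovaCPT11 replicate 1 and CPT11 replicate 3 also lay above 0 in both sets, LovaCPT11 replicate 1 within the range of the shSHP2CPT11 libraries. The other LovaCPT11 and CPT11 libraries did not lie above 0.

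**Figure D4:**
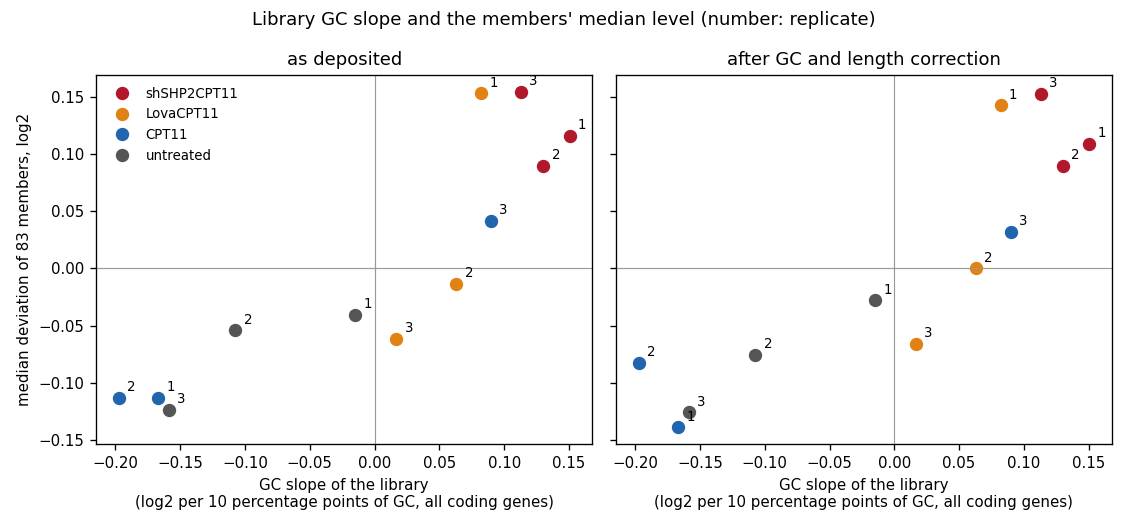
Each point is 1 library, with its GC slope over all coding genes on the x axis and the median log2 deviation of the 83 members on the y axis, as deposited and after correction for GC and length. Numbers give the replicate. CPT11 replicate 3 has a slope of 0.09 and a median of 0.04, while CPT11 replicates 1 and 2 have slopes of -0.17 and -0.20 and medians of -0.11.

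Among the members themselves, differences between shSHP2CPT11 and CPT11 cells were greater in genes of higher GC (Spearman rho 0.49 over 83 genes) and in shorter genes (rho -0.36), as they were between shSHP2CPT11 and untreated cells (0.31 and -0.33). These are descriptions over genes that share the same libraries. In shSHP2CPT11 against CPT11 cells, the 20 members with 42% to under 46% GC had a median of 0.05 and all coding genes in that bin -0.13, and the 17 members with 50% to under 55% GC had 0.29 against 0.03. By length, the 21 members of 1000 to under 2000 bases had a median of 0.29 and all coding genes 0.16. With levels corrected for GC and length, 21 members were higher and 0 lower in shSHP2CPT11 against CPT11 cells, beside 7.55% of all genes higher, and 14 of the 19 uncorrected calls were kept. The calls lost were those of COX6A1 (1.21 before and 1.195 after correction), ATP5ME (0.83 and 0.65), NDUFA11 (0.61 and 0.355), UQCRQ (0.24 and 0.14) and ATP5F1D (0.62 and 0.15). Against untreated cells, corrected counts were 35 higher and 8 lower in shSHP2CPT11 cells (19.2% and 20.4% of all genes), with 30 of 36 calls kept (those of NDUFA7, NDUFA11, UQCR11, COX7A1, ATP5ME and ATP5S were lost), and 22 higher and 9 lower in LovaCPT11 cells (17% and 17.7%), with 15 of 16 kept (that of ATP5F1A, at -0.04 after correction, was lost). Other members moved by over 1.5 times with their calls kept. In shSHP2CPT11 against CPT11 cells, NDUFV1 was 0.27 after correction, NDUFA4 0.39, UQCRB 0.55 and ATP5MPL 0.29, against 0.45, 0.22, 0.31 and 0.18 before it. In shSHP2CPT11 against untreated cells, NDUFA4 was 0.39, UQCRB 0.69 and COX7A2L 0.33 after correction, against 0.21, 0.44 and 0.18 before it.

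**Figure D5:**
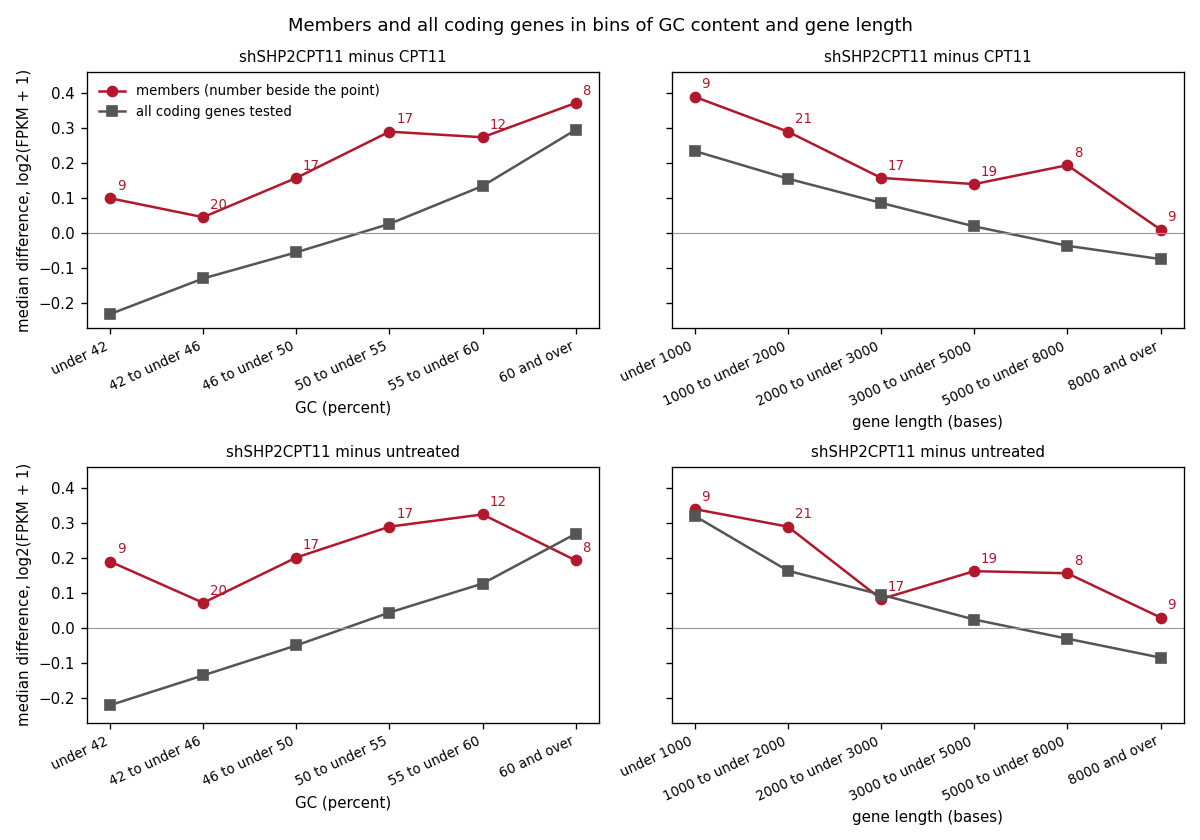
Median log2 difference of the members (red circles, with their number) and of all coding genes tested (grey squares) in bins of GC content and gene length, for shSHP2CPT11 minus CPT11 and shSHP2CPT11 minus untreated cells. Against CPT11 cells the members lie above the coding genes in all 12 bins, while against untreated cells they lie below them in the highest GC bin and in the bin of 2000 to under 3000 bases.

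By complex, the summed FPKM of complex IV was 685.9 to 718.8 in the shSHP2CPT11 libraries, 564.9 to 707.6 in the LovaCPT11 libraries, 467.4 to 639.8 in the CPT11 libraries and 472.1 to 545.2 in the untreated libraries. For complex II the sums were 84.6 to 91.4 in the shSHP2CPT11 libraries, 79.1 to 84.2 in the LovaCPT11 libraries, 77.3 to 83.8 in the CPT11 libraries and 82.1 to 84.1 in the untreated libraries. The 90 genes together took 0.835% to 0.866% of assigned reads in the shSHP2CPT11 libraries, 0.735% to 0.835% in the LovaCPT11 libraries, 0.687% to 0.783% in the CPT11 libraries and 0.686% to 0.748% in the untreated libraries.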

How the data were processed

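RNA from 12 HCT-116 libraries (3 for each of 4 groups, taken from the sample titles) was given as 1 table of FPKM, deposited by the authors for 59172 features. Per the submitters' processing notes, the tools included DESeq2 1.16.1, featureCounts 1.5.0-p3, HISAT2 2.0.5 and StringTie 1.3.3b, with hg19 as the build, but 100% of the 58735 Ensembl features carry GENCODE 29 coordinates (GRCh38), which are used here. Values times gene length were whole multiples of 1 step per library (100% within 0.01), which recovered the assigned reads and showed size-factor scaling, so differences are relative to the typical gene. Reads of pseudogenes, copies and overlapping genes cannot be told apart.

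Genes with at least 10 scaled reads in at least 3 libraries and 15 in all were tested with limma 3.58.1 (R 4.3.3, trend) on log2(FPKM + 1), 1 mean per group over 12 libraries, with Benjamini-Hochberg adjustment. Fold changes on this scale understate changes of low genes. GC content (from GENCODE 29 transcripts) and length were corrected per library by natural splines with 4 degrees of freedom. The tests were checked on simulated data for CPT11 against untreated cells, where changes of small fold were often missed and the share of false calls lay somewhat above the threshold. The simulated libraries all had the same spread, no GC or length bias and no library like CPT11 replicate 3. The check therefore does not give the error rates of the real comparisons. Members and lists were chosen with earlier results of these data known. Genes were named by a fixed rule: core subunits, isoform pairs, members that failed the filter, the highest and lowest per complex, up to 3 calls per complex and direction by smallest adjusted p and up to 2 per related list. Alternatives (scaling, filter, pseudocount, voom, samples in the fit, replicate block, left-out libraries) are given at the end. A member counted in the totals is not reported by name here.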

Additional observations from a re-analysis of the deposited data

How the results depend on the processing

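No called member reversed its direction under the alternatives run; genes that were not called and genes of the related lists were not followed one by one. In the following, counts are members called higher and lower, with the shares of all genes tested in parentheses. Leaving out each library of the compared groups in turn gave 0 to 4 and 3 to 15 for CPT11 against untreated cells (6.16% to 11.6% and 4.54% to 12.9%). For LovaCPT11 against CPT11 it gave 0 to 26 and 0 to 3 (0.227% to 15.9% and 0% to 14.3%). For shSHP2CPT11 against CPT11 it gave 1 to 38 and 0 to 2 (2.16% to 21.6% and 3.5% to 21.9%). For LovaCPT11 against untreated it gave 6 to 14 and 2 to 4 (10.8% to 13.3% and 10% to 13.2%), and for shSHP2CPT11 against untreated 15 to 24 and 2 to 5 (13.5% to 17.5% and 15% to 18.8%). The upper ends in the comparisons with CPT11 came without CPT11 replicate 3, and leaving it out of the shared fit gave 22 higher (19%) for LovaCPT11 against untreated.

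Correction for GC and length gave 5 higher (12.5%) for CPT11 against untreated and 22 and 9 (17% and 17.7%) for LovaCPT11 against untreated. It gave 8 lower (20.4%) for shSHP2CPT11 against untreated. With CPT11 replicate 3 also left out (chosen after seeing the data), it gave 5 and 15 (13% and 13.8%) for CPT11 against untreated. It then gave 21 and 3 (7.47% and 7.45%) for LovaCPT11 against CPT11, and 39 and 4 (13.6% and 15.1%) for shSHP2CPT11 against CPT11. Correction for GC alone gave 6 higher (12.1%) for CPT11 against untreated and 21 and 8 (16.2% and 17.6%) for LovaCPT11 against untreated. With no filter, 3 were lower (2.17%) for CPT11 against untreated and 1 higher (1.55%) for shSHP2CPT11 against CPT11. That setting gave 7 and 2 (4.87% and 4.65%) for LovaCPT11 against untreated, and 18 and 3 (6% and 6.81%) for shSHP2CPT11 against untreated. With only the 2 groups in the fit, CPT11 against untreated gave 1 and 3 (4.07% and 2.31%) and shSHP2CPT11 against CPT11 gave 1 higher (1.01%). Without CPT11 replicate 3 that fit gave 9 lower (7.67%) for CPT11 against untreated and 19 and 2 (14.1% and 12.2%) for LovaCPT11 against CPT11. It gave 41 and 3 (21.7% and 21.3%) for shSHP2CPT11 against CPT11. Scaling to total reads, with or without the 20 most counted genes, gave 6 and 3 for CPT11 against untreated (10.6% and 5.57%, or 10.9% and 5.34% without those genes). It gave 20 higher (18% either way) for LovaCPT11 against untreated. For shSHP2CPT11 against untreated it gave 1 lower (14.3%), or 2 without those genes (14.4%), and a median of 0.27, beside 0.06 for all genes. Beyond the change in libraries or genes entered, the cause was not tested.

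Whether same-numbered libraries belong together is unknown, and they were treated as unpaired. No comparison had all 3 correlations of same-numbered libraries over 0.1. These values, from -0.39 to 0.18, cannot settle it, since they rest on 3 libraries a group. A replicate block gave 6 members higher for shSHP2CPT11 against CPT11 (7.23%, beside 5.59% of all genes), and 10 with GC and length correction (12%, beside 5.41%). With 3 libraries a group, many of the calls were lost when 1 library was left out, often with any of several libraries.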
